A study of Mus musculus with 18 samples.

Results

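Collagens are the main structural proteins of the extracellular matrix, and the genes described here encode collagen chains and enzymes that modify, fold or cross-link them. The members were the genes whose symbol begins with Col followed by a chain number, with Plod or with Lox, together with P4ha2, Pcolce and Serpinh1. There were 49 such genes among 15964 measured genes, 40 for collagen chains and 9 for processing proteins, and they were read by 91 of 36701 probe sets. Each gene was read by its brightest probe set that carried 1 gene symbol, the one with the highest mean of log2(intensity + 16) over the 6 arrays of its chip. Col24a1, Col20a1, Col21a1, Col6a5, Col28a1, Loxl2 and Loxl4 had no such probe set and were not analysed here.

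The study sorted retinal cells of FVB/N mice at postnatal day 8 by flow cytometry. All mice were homozygous for a Tie2-GFP transgene, in which the Tie2 promoter, active in endothelial cells and known to be active in some blood-derived cells, drives GFP. GFP-positive cells stood for the endothelium and GFP-negative cells, every other sorted cell of the same tissue, for the non-endothelial control. Retinas were pooled before papain digestion, RNA was amplified, and each population was hybridised to 3 arrays of each of the 3 Affymetrix MGU74v2 chips, called A, B and C, giving 18 arrays. The labels do not say that the arrays came from separate animals or sorts, so the p-values speak to how these arrays varied, and that variation may be technical.

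Collagen chains assemble in threes into a triple helix inside the endoplasmic reticulum, after prolyl and lysyl residues have been hydroxylated. Collagen IV forms the sheet of vascular basement membranes, and the multiplexins, collagens XV and XVIII, sit at its outer face. Collagens II, IX and XI form the thin fibrils of cartilage and of the vitreous gel of the eye. Lysyl oxidases cross-link the secreted fibrils.

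Col18a1 and Col9a1 differed in opposite directions between the sorted populations, and RefSeq lists more than 1 start site for each, so the bases before those starts are shown. The RefSeq table (build GRCm38.p6) held promoter windows, 250 bases before to 50 after a start, for 36 of the 49 members, in 39 windows. Capitals mark matches, on either strand, to CCAAT or GGGCGG, the only ones of 6 searched motifs found here. The Col18a1 windows lie on the minus strand at chr10:77166531-77166780 for the upstream start and chr10:77113706-77113955 for the downstream start, and the Col9a1 windows on the plus strand at chr1:24177360-24177579 and chr1:24194953-24195202. For the upstream Col9a1 start, the 30 bases next to the start are not shown, because the annotated gene begins there.
Col18a1 upstream start: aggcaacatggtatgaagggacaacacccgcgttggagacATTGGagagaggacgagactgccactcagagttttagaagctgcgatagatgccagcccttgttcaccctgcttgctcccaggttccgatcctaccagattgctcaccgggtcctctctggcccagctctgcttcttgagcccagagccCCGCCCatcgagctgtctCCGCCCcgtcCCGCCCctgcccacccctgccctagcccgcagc
Col18a1 downstream start: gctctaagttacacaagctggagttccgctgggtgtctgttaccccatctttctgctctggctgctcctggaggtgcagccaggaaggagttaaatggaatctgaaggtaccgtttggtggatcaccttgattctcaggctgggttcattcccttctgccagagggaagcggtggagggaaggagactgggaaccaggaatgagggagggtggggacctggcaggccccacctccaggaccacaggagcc
Col9a1 upstream start: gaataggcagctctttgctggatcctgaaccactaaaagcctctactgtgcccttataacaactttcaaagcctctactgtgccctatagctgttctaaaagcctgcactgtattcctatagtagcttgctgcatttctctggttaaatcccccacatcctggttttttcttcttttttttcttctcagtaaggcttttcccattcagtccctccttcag
Col9a1 downstream start: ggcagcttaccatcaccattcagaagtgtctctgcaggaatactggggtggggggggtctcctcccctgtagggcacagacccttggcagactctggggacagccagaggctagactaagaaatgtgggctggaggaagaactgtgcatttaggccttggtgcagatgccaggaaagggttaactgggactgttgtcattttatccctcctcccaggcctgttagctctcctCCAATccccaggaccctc
The upstream Col18a1 window held CCAAT at position -210 and GGGCGG at positions -61, -43 and -33, counted from the start. The downstream Col9a1 window held CCAAT at position -18. Among all 32851 windows of 300 bases, 37.4% held CCAAT and 35.7% GGGCGG. The other motifs searched, with the share of all windows that held them, were TATAAA (13.6%), ACAAT (31%), TGTTTAC (3.65%) and CCGGAAG (8.86%), and none of the 6 contains another. The 2 Col9a1 windows had 0 and 1 CpG dinucleotides and a GC content of 47.3% and 55.7%, against a median of 7 CpG and 52.7% GC over all windows.

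Col4a1 and Col4a2 lie head to head. On chromosome 8 the annotated Col4a1 start, on the minus strand, was at position 11312826 and the Col4a2 start, on the plus strand, at 11312805, so that the annotated 5' ends overlap by 22 bases and the 2 windows share 78 bases. The bases before each start lie within the other gene and are therefore not printed. The windows had 37 and 33 CpG dinucleotides and a GC content of 74.0% and 73.7%. CCAAT lay at -145 in the Col4a1 window and at -32 in the Col4a2 window, and GGGCGG at 10 in the former and at -192, -48 and 8 in the latter. Col4a5 and Col4a6 are likewise head to head, with starts 1343 bases apart on chromosome X.

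Values are intensities per probe set, and differences are on the log2(intensity + 16) scale, GFP-positive minus GFP-negative, which understates changes of dim probe sets. Array medians ranged from 43.3 to 44.5 on chip A, from 40.7 to 44.6 on chip B and from 32.5 to 34.4 on chip C. GFP-positive replicate 3 stood apart on every chip. Its Spearman correlation with the other GFP-positive arrays was 0.911 to 0.929, against 0.960 to 0.987 for all other pairs within a population, and 192, 235 and 206 probe sets of chips A, B and C were at least 4-fold brighter on it than on the mean of the other 2, against at most 6 for any other array. The sort label held in the marker genes: 9 of 10 endothelial markers, Cldn5, Cdh5, Tek and Eng among them, were higher in GFP-positive cells, with summed intensities of 12050 to 14765 against 220 to 275. Pecam1 was the exception, with means of 50.2 in GFP-positive and 52.6 in GFP-negative arrays and a difference of -0.05. In sorted bulk samples, fewer cells of a type and less RNA per cell cannot be told apart.

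Of the 49 genes, 8 rose in GFP-positive cells and 4 fell, by limma's test with Benjamini-Hochberg adjustment within each chip at 0.05. That was 16.3% and 8.16% of the members, beside 9.83% higher and 11.9% lower among all 15964 genes, or 21.8% in either direction. Col4a1, Col4a2, Col18a1, Col15a1, Col5a2, Col27a1, Plod2 and Plod3 rose. Col9a1, Col9a3, Col11a1 and Col6a1 fell. The intensities of the 2 populations did not overlap for 20 members, 14 higher and 6 lower, a share close to the 41.4% of all genes. The median difference was 0.11 over the members and 0.04 over all genes. Without GFP-positive replicate 3, 9 members rose and 7 fell, or 18.4% and 14.3%, beside 14.9% higher and 17.1% lower among all genes.

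**Figure D1:**
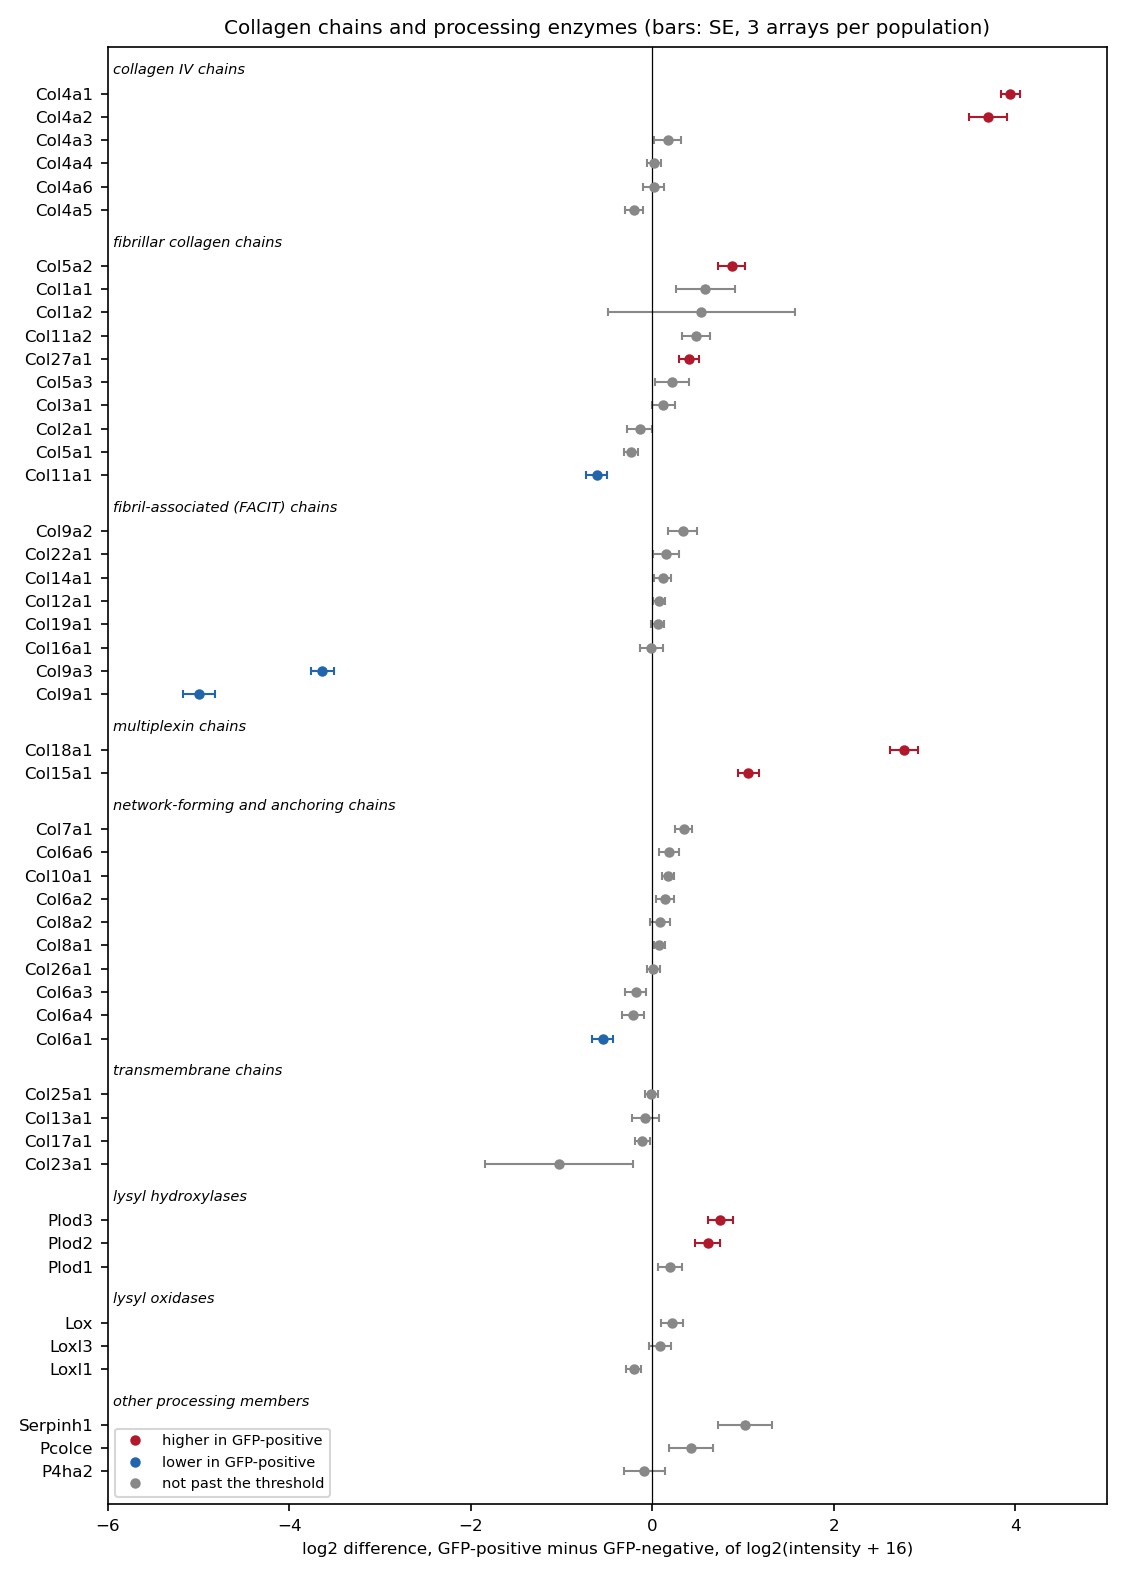
Log2 difference (GFP-positive minus GFP-negative) of each of the 49 members by its brightest probe set, grouped by family. Bars are the standard error (SE) of limma's fit. Collagen IV, multiplexin and FACIT chains hold the largest differences, from 3.94 for Col4a1 to -4.99 for Col9a1.

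Among the 6 collagen IV chains, Col4a1 and Col4a2 rose and the other 4 did not pass the test. Col4a1, the α1 chain present in nearly every basement membrane, read 3745, 2937 and 3197 in GFP-positive replicates 1 to 3 and 206, 197 and 191 in GFP-negative replicates 1 to 3. Every GFP-positive array was far above every GFP-negative one, and the difference was 3.94 (SE 0.11, adjusted p = 2.7e-05). Col4a2, whose product joins Col4a1 in the same trimer, read 1889, 2352 and 1647 against 138, 174 and 101. The populations did not overlap, and the difference was 3.70 (SE 0.21, adjusted p = 0.000325). A second Col4a2 probe set, on chip A, gave 3.49.

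The other type IV chains build trimers of specialised membranes such as those of kidney and lens. Col4a3, Col4a4, Col4a5 and Col4a6 differed by 0.17, 0.02, -0.20 and 0.01, and none passed. Both population means of Col4a3, Col4a5 and Col4a6 lay under the lowest array median of their chip, so that their probe sets were dim in both populations. Col4a4 was brighter, at 61.5 ± 3.60 against 60.5 ± 4.47 (SD, n = 3 arrays each), and its populations overlapped.

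Both multiplexins rose. Col18a1, a heparan sulphate bearing collagen whose C-terminal fragment is endostatin, read 1102, 913 and 900.49 against 153, 132 and 103. All GFP-positive arrays lay above all GFP-negative arrays, and the difference was 2.77 (SE 0.16, adjusted p = 0.000208). Its 5 probe sets, all on chip A, gave differences from 0.10 to 3.77, and 4 of them rose. Col15a1, which links basement membrane to the underlying matrix, read 48.1, 34.0 and 49.2 against 11.7, 12.3 and 13.4, without overlap. Its difference was 1.06 (SE 0.12, adjusted p = 0.0024). GFP-positive replicate 2 and all GFP-negative values lay under the lowest array median of chip A, 43.3, so this probe set was dim.

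Of the 10 fibrillar chains, Col5a2 and Col27a1 rose and Col11a1 fell. Col5a2, a chain of the collagen V that starts fibrils of collagen I, read 114, 167 and 169 against 75.6, 72.1 and 72.3. The populations were separate, with a difference of 0.88 (SE 0.15, adjusted p = 0.0111), and the call was lost without GFP-negative replicate 3, at adjusted p = 0.0525 (range over 19 alternatives 0.0015 to 0.0525). Of its 3 probe sets, 2 rose and that on chip C gave -0.19. Col27a1, a fibrillar chain of cartilage, read 73.1, 73.2 and 76.2 against 43.7, 54.9 and 59.6. Its difference was 0.40 (SE 0.11, adjusted p = 0.0471), both of its probe sets rose, and its call was lost with any of 5 of the 6 arrays left out. The adjusted p for Col27a1 ran from 0.0157 to 0.128 over 19 alternatives.

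Col11a1, a chain of the collagen XI that sits inside cartilage and vitreous fibrils, read 14.8, 14.8 and 13.2 against 38.0, 25.7 and 28.1. The GFP-positive arrays were all below the GFP-negative ones, and the difference was -0.61 (SE 0.11, adjusted p = 0.0145). Both means were under the lowest array median of chip A, and the call held with each array left out. Col11a2, the partner chain, had a difference of 0.48 (adjusted p = 0.0852) on chip A and -0.41 on chip C. The chip C probe set read 74.0, 63.9 and 323 against 173, 209 and 118. Without GFP-positive replicate 3 its difference was -1.07 (adjusted p = 0.0177).

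The chains of collagens I and III did not pass in this test. Col1a2, a chain of the main fibrillar collagen of mesenchyme, read 44.1, 42.9 and 786 against 75.5, 92.3 and 77.2. GFP-positive replicate 3 alone was high, and the other GFP-positive arrays lay below all GFP-negative ones. The difference of 0.54 (adjusted p = 0.786) became -0.71 (adjusted p = 0.0054) without that array, within a range of 0.0054 to 0.876 over 19 alternatives. The gene's other probe set, at 21.1, 21.1 and 26.0 against 34.8, 45.1 and 38.7, fell, with a difference of -0.52 (adjusted p = 0.0171). Col1a1 differed by 0.58 (adjusted p = 0.305), or by 0.19 without GFP-positive replicate 3, which read 194 beside 79.6 and 75.9. Col3a1 differed by 0.12, Col5a1 by -0.23, Col5a3 by 0.22 and Col2a1, the cartilage and vitreous chain, by -0.14.

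Collagen IX, a fibril-associated collagen that coats the surface of collagen II fibrils, gave the largest decrease. Col9a1 on chip B read 10.9, 18.7 and 18.2 in GFP-positive and 1226, 968 and 827 in GFP-negative arrays. The gap between the populations was wide, with a difference of -4.99 (SE 0.17, adjusted p = 1.87e-05). The gene's other probe set, on chip A, read 68.3, 73.4 and 143 against 84.8, 85.4 and 78.1 and did not pass, with a difference of 0.11 (adjusted p = 0.826). Which part of the gene each probe set reads was not analysed here.

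Col9a3, which joins Col9a1 in the same trimer, read 49.2, 46.4 and 39.2 against 868, 681 and 683. No array overlapped, and the difference was -3.63 (SE 0.13, adjusted p = 4.34e-05). A probe set on chip C also fell, at -3.58, and another on chip A, dim in both populations, gave -0.15. Col9a2, the remaining chain of that trimer, differed by 0.34 (adjusted p = 0.232), and by 0.50 (adjusted p = 0.0198) without GFP-positive replicate 3, in the opposite direction to its partners. Its adjusted p ran from 0.0163 to 0.505 over 19 alternatives. The other fibril-associated chains, Col12a1, Col14a1, Col16a1, Col19a1 and Col22a1, differed by 0.07, 0.11, -0.01, 0.06 and 0.15 and none passed.

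**Figure D2:**
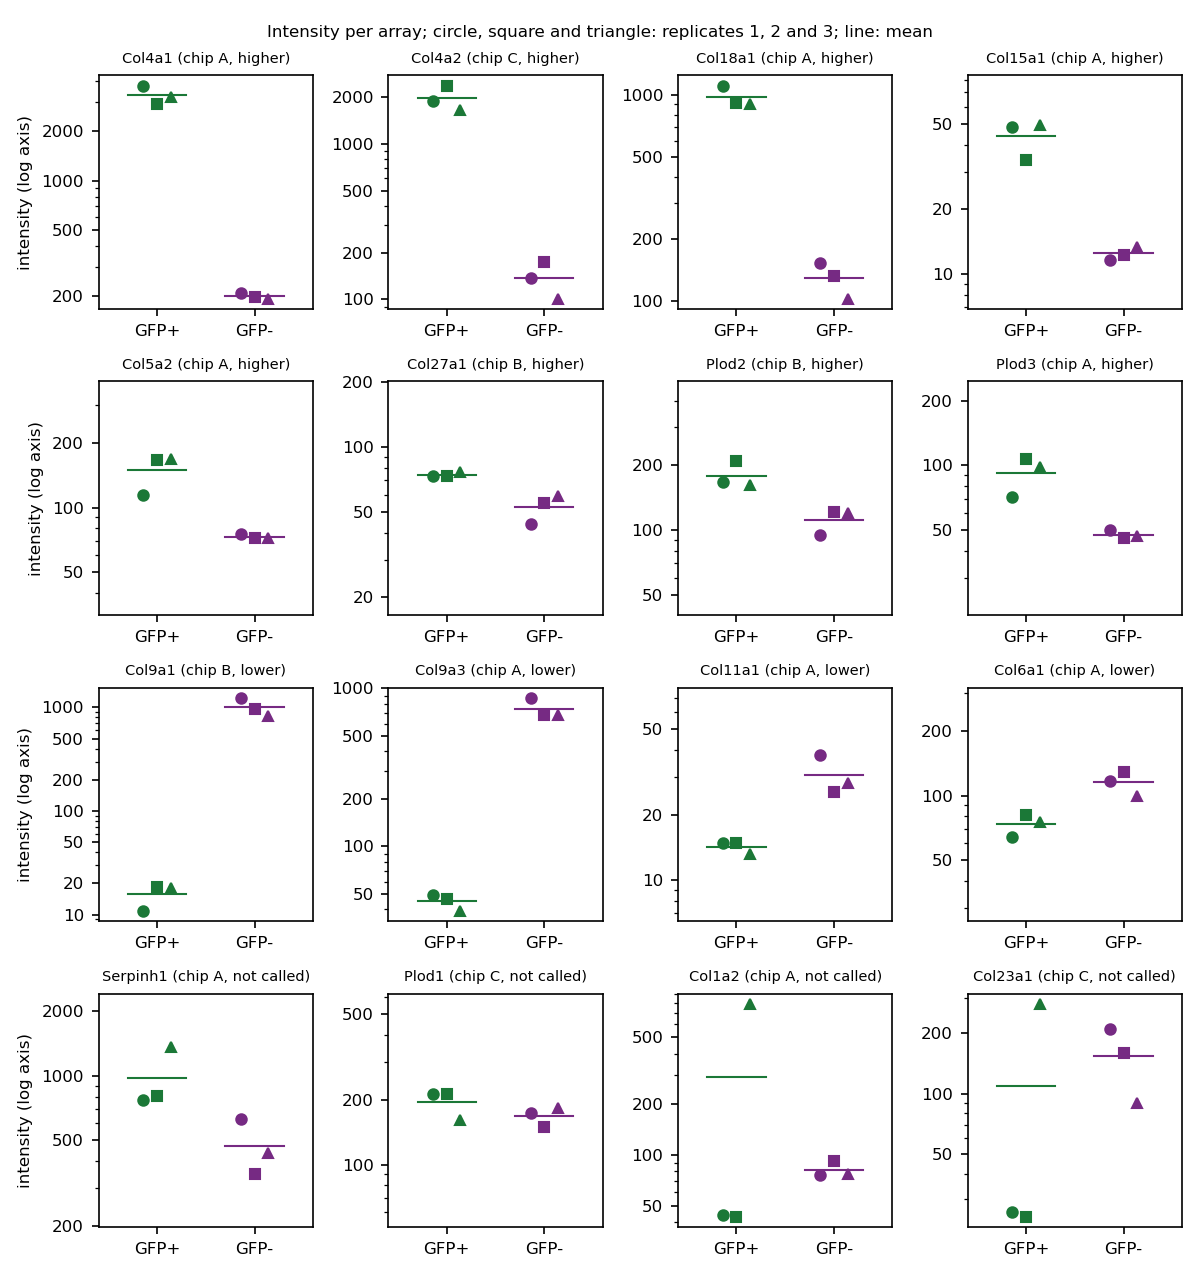
Intensity (log axis) on each of the 6 arrays of its chip for 16 members, the 12 that passed and 4 that did not. Circles, squares and triangles are replicates 1, 2 and 3, and lines are means. Col1a2 and Col23a1 show GFP-positive replicate 3 far above the other GFP-positive arrays.

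Among 10 network-forming and anchoring chains, Col6a1 fell and none rose. Col6a1, a chain of the beaded filaments around cells, read 64.2, 81.6 and 75.3 against 117, 129 and 100.01. The populations did not overlap, and the difference was -0.55 (SE 0.12, adjusted p = 0.0257). Its call was lost with GFP-positive replicate 1, GFP-negative replicate 1 or GFP-negative replicate 2 left out, and its adjusted p ran from 0.0236 to 0.0955 over 19 alternatives. The other Col6a1 probe set, dim in both populations, gave -0.10 and did not pass. Col6a2, Col6a3, Col6a4 and Col6a6 differed by 0.14, -0.18, -0.21 and 0.18. Col7a1, the anchoring fibril chain, differed by 0.34 (adjusted p = 0.0632), and Col8a1, Col8a2, Col10a1 and Col26a1 by 0.08, 0.08, 0.17 and 0.01.

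None of the 4 transmembrane chains passed by its brightest probe set. Col23a1, a membrane collagen that is shed from the cell surface, read 25.7, 24.4 and 279 against 209, 160 and 90.2. GFP-positive replicate 3 was above every other array and the remaining GFP-positive arrays were below all GFP-negative ones. The difference was -1.03 (adjusted p = 0.504), and -1.98 (adjusted p = 0.0071) without that array. Over 19 alternatives its adjusted p ran from 0.0031 to 0.811. A chip B probe set of Col23a1, at 22.0, 18.0 and 21.2 against 201, 122 and 82.4, fell by 1.98 (adjusted p = 0.0031), and there GFP-positive replicate 3 was not high. Col13a1, Col17a1 and Col25a1 differed by -0.08, -0.11 and -0.01.

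Grouped by where the chains are known to be found, 4 of 5 vessel basement membrane chains rose, Col4a1, Col4a2, Col15a1 and Col18a1, with a median difference of 2.77. Col8a1 was the exception. Of 9 chains known from neural retina, cartilage or brain, 0 rose and 3 fell, Col9a1, Col9a3 and Col11a1, with a median of -0.14. Of 8 chains of mesenchyme and mural cells, Col5a2 rose and Col6a1 fell, with a median of 0.13. These sets were chosen with earlier results of these data known, and their counts are a description.

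Of the 9 processing proteins, Plod2 and Plod3 rose and none fell. The lysyl hydroxylases modify lysines of procollagen before cross-linking. Plod2, which hydroxylates the telopeptides, read 167, 208 and 162 against 94.3, 121 and 120.3, without overlap, and the difference was 0.61 (SE 0.14, adjusted p = 0.0232). Plod3, which also adds glucose to hydroxylysine that carries galactose, read 70.8, 107 and 98.0 against 50.04, 45.8 and 47.0. Its difference was 0.75 (SE 0.14, adjusted p = 0.016). Each call was lost with any of 3 arrays left out, GFP-positive replicate 2 and GFP-negative replicates 1 and 2 for Plod2 and each GFP-negative array for Plod3. Adjusted p-values ran up to 0.0748 for Plod2 and 0.0682 for Plod3 over 19 alternatives. Plod3 was read by 4 probe sets, of which 2 rose and the others gave 0.24 and -0.04. Plod1, the helix lysyl hydroxylase, differed by 0.19 by its brightest probe set on chip C, while 3 of its 6 probe sets rose, by 0.61, 0.75 and 0.94.

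Serpinh1, the collagen chaperone HSP47, read 774, 803 and 1364 in GFP-positive and 630, 349 and 439 in GFP-negative arrays. All GFP-positive values lay above all GFP-negative ones, and yet the difference of 1.02 (SE 0.30) had an adjusted p of 0.067. Without GFP-positive replicate 3 it was 0.76 (adjusted p = 0.069), and the adjusted p ran from 0.0329 to 0.193 over 19 alternatives. Pcolce, an enhancer of C-propeptide removal, differed by 0.43 (adjusted p = 0.318). P4ha2, a catalytic subunit of prolyl 4-hydroxylase, differed by -0.09, and by -0.35 (adjusted p = 0.0218, range over 19 alternatives 0.0218 to 0.949) without GFP-positive replicate 3. The cross-linking enzymes Lox, Loxl1 and Loxl3 differed by 0.22, -0.21 and 0.08, and all 3 were dim in both populations. Lox alone among them passed without GFP-positive replicate 3, at 0.34 (adjusted p = 0.0284, range over 18 alternatives 0.0202 to 0.921).

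Of the 37 members that did not pass, 29 differed by less than 0.25 in either direction and 20 had both means under the lowest array median of their chip. No detection calls were used, so such dim values may be background. A p that misses the threshold does not show equal levels.

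More than 1 probe set read 26 of the members. Of the 91 member probe sets, 18 rose and 8 fell. Among all probe sets, 9.09%, 9.6% and 3.4% were higher on chips A, B and C, and 9.25%, 11.3% and 5.88% lower. For 14 of these genes no probe set passed, for 2 (Col4a2 and Col27a1) all passed, and for 10 only some did. No gene had probe sets that passed in opposite directions. By any probe set, no count over all genes was made, and such a count grows with the number of probe sets. Counting any probe set, 9 genes had at least 1 that rose and 7 had at least 1 that fell. Col5a1 joined the latter through a chip C probe set at 5.91, 7.31 and 16.2 against 143, 156 and 101, a difference of -2.53 (adjusted p = 0.0012), while its 3 other probe sets gave -0.06 to -0.23.

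**Figure D3:**
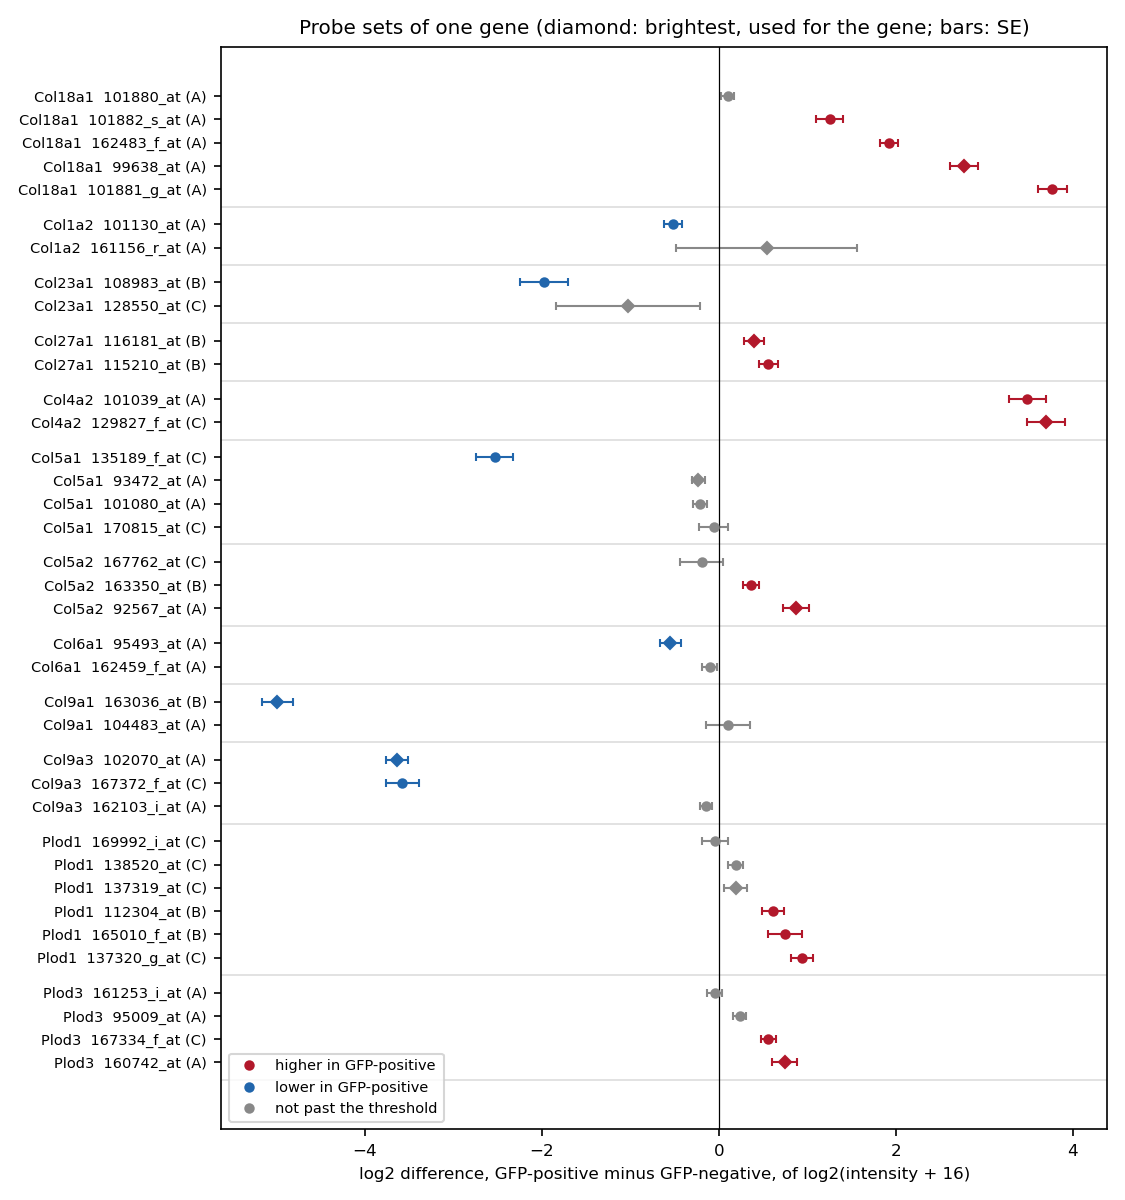
Log2 difference of every probe set of the members read by more than 1 of which at least 1 passed. The set that stands for the gene is marked. The 14 members read by more than 1 probe set of which none passed are not drawn. Col9a1, Col18a1 and Col9a3 spread the widest, from -4.99 to 0.11, from 0.10 to 3.77 and from -3.63 to -0.15.

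**Figure D4:**
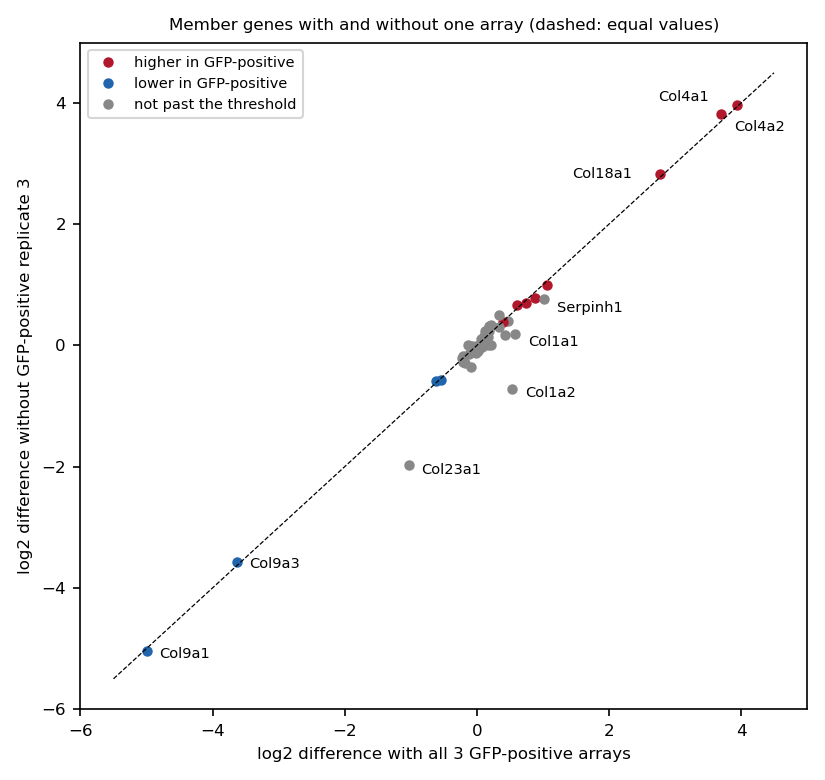
Log2 difference of each member with all arrays (x axis) and without GFP-positive replicate 3 (y axis). Most members lie on the diagonal, and Col1a2 (0.54 to -0.71) and Col23a1 (-1.03 to -1.98) lie farthest below it.

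Markers of other retinal cells were measured beside these chains, and their part in the collagen values was not tested. Müller glia markers fell in 7 of 9, with summed intensities of 1243 to 2121 in GFP-positive against 5129 to 8948 in GFP-negative arrays. No measured marker was listed at 0 on any array. Mural cell markers gave similar sums, 423 to 517 against 467 to 556, and 1 of 11, Abcc9, fell. Pdgfrb, Acta2, Tagln and Anpep had both means under the lowest array median of their chip. The mural sums may therefore hold much background and do not show equal mural content. Sums of other dim markers carry the same limit. Fibroblast markers summed to 385 to 485 against 596 to 1039. Pdgfra, which is also made by retinal astrocytes, fell by 3.45 and carried that gap: the other 6 summed to 362 to 469 against 339 to 348. Lum rose, and lost its call without GFP-positive replicate 3 (adjusted p = 0.047 with it and 0.0577 without it). Leukocyte and microglia markers summed to 297, 297 and 1238 on GFP-positive replicates 1 to 3 and to 309 to 341 on GFP-negative arrays. On the third array a Csf1r probe set read 930 against 37.3 and 41.2 on the others, in the same replicate where the Col1a2 and Col23a1 probe sets were high. Csf1r was not alone there: a probe set of the Müller glia marker Glul read 986 against 136 and 156. Of all genes, 347 were at least 4-fold brighter on GFP-positive replicate 3 than on the mean of replicates 1 and 2. The other 7 leukocyte and microglia markers summed to 260, 256 and 309 on GFP-positive replicates 1 to 3 and to 215 to 229 on GFP-negative arrays. C1qb, a complement gene of microglia and macrophages, was the 1 of 8 that rose, at 73.1, 57.7 and 53.2 against 32.1, 27.3 and 27.5. Astrocyte and red blood cell markers passed in 0 of 4 and 0 of 3. Of 6 photoreceptor markers, Nrl and Sag fell. Of 9 inner neuron markers, Prox1 and Snap25 fell and Sncg rose. Of 5 pigment epithelium markers, Dct rose, by 1.24, and the list summed to 392 to 536 in GFP-positive against 287 to 311 in GFP-negative arrays.

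Genes that act on or bind collagen, 54 measured of 63 listed, held 15 that rose and 2 that fell, with a median difference of 0.19. With all arrays, the shares were 27.8% and 3.70%, beside 9.83% and 11.9% of all genes. The 54 genes had 88 probe sets between them, and only the brightest of each gene is given here. Agreement between the probe sets of a partner gene was not examined. Leaving out GFP-positive replicate 1 left 7 that rose, and leaving out GFP-negative replicate 2 or 3 left 9. Over all genes, the count that rose also dropped, from 1569 to 1244, 949 and 1026. With GFP-positive replicate 3 left out, 4 partner genes fell, while the count over all genes went from 1907 to 2733. In prolyl hydroxylation, folding and glycosylation, Crtap, Colgalt1 and P3h1 rose and P4ha1 fell among 13. Crtap, a subunit of the prolyl 3-hydroxylase complex, read 823, 961 and 846 against 117, 113 and 102, and the difference was 2.81 (SE 0.09, adjusted p = 3.7e-05). P3h1, its catalytic partner, differed by 0.37 (adjusted p = 0.0316, and 0.0517 without GFP-positive replicate 3), and Colgalt1, which adds galactose to hydroxylysine, by 0.60. P4ha1, the other main catalytic subunit of prolyl 4-hydroxylase, read 55.6, 38.7 and 50.1 against 228, 128 and 134, and the difference was -1.45 (SE 0.23, adjusted p = 0.0086). Hspa5, an endoplasmic reticulum chaperone and the brightest that did not pass, was at 844 ± 247 against 902 ± 211.

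For export and propeptide removal, counts were small. Sec13, a coat protein of export vesicles, rose by 0.65 and was 1 of 7 export genes, while Creb3l2, the brightest that did not pass, differed by 0.24. Furin, a proprotein convertase, and Tll1, a procollagen C-proteinase, rose by 1.29 and 0.62 among 6, and Bmp1, the related proteinase, differed by 0.36 (adjusted p = 0.605). None of 7 collagen-degrading proteases passed, the brightest being Mmp14 at 109 ± 27.1 against 96.1 ± 17.8.

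Of 8 collagen receptors, 3 rose and 1 fell. Itga1 and Itgb1, which pair as the integrin that binds collagen IV, rose by 2.65 and 1.18, and Mrc2, an endocytic collagen receptor, by 0.73. Itga1 read 314, 300.2 and 146 against 29.1, 25.7 and 20.2, so all GFP-positive arrays were above the GFP-negative ones. Ddr1, the collagen-binding receptor tyrosine kinase, read 18.0, 21.6 and 21.9 against 972, 896 and 1044 and fell by 4.75 (adjusted p = 2.68e-05). Itga10 was the brightest receptor that did not pass, at a difference of 0.16. Of 13 collagen-binding matrix proteins 6 rose and none fell. Bgn, a small proteoglycan, Tgfbi, an adhesion protein, and Nid2, a linker of basement membrane, rose by 3.30, 2.67 and 1.63. Sparc, which binds collagen IV, differed by 0.96 (adjusted p = 0.0995).

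**Figure D5:**
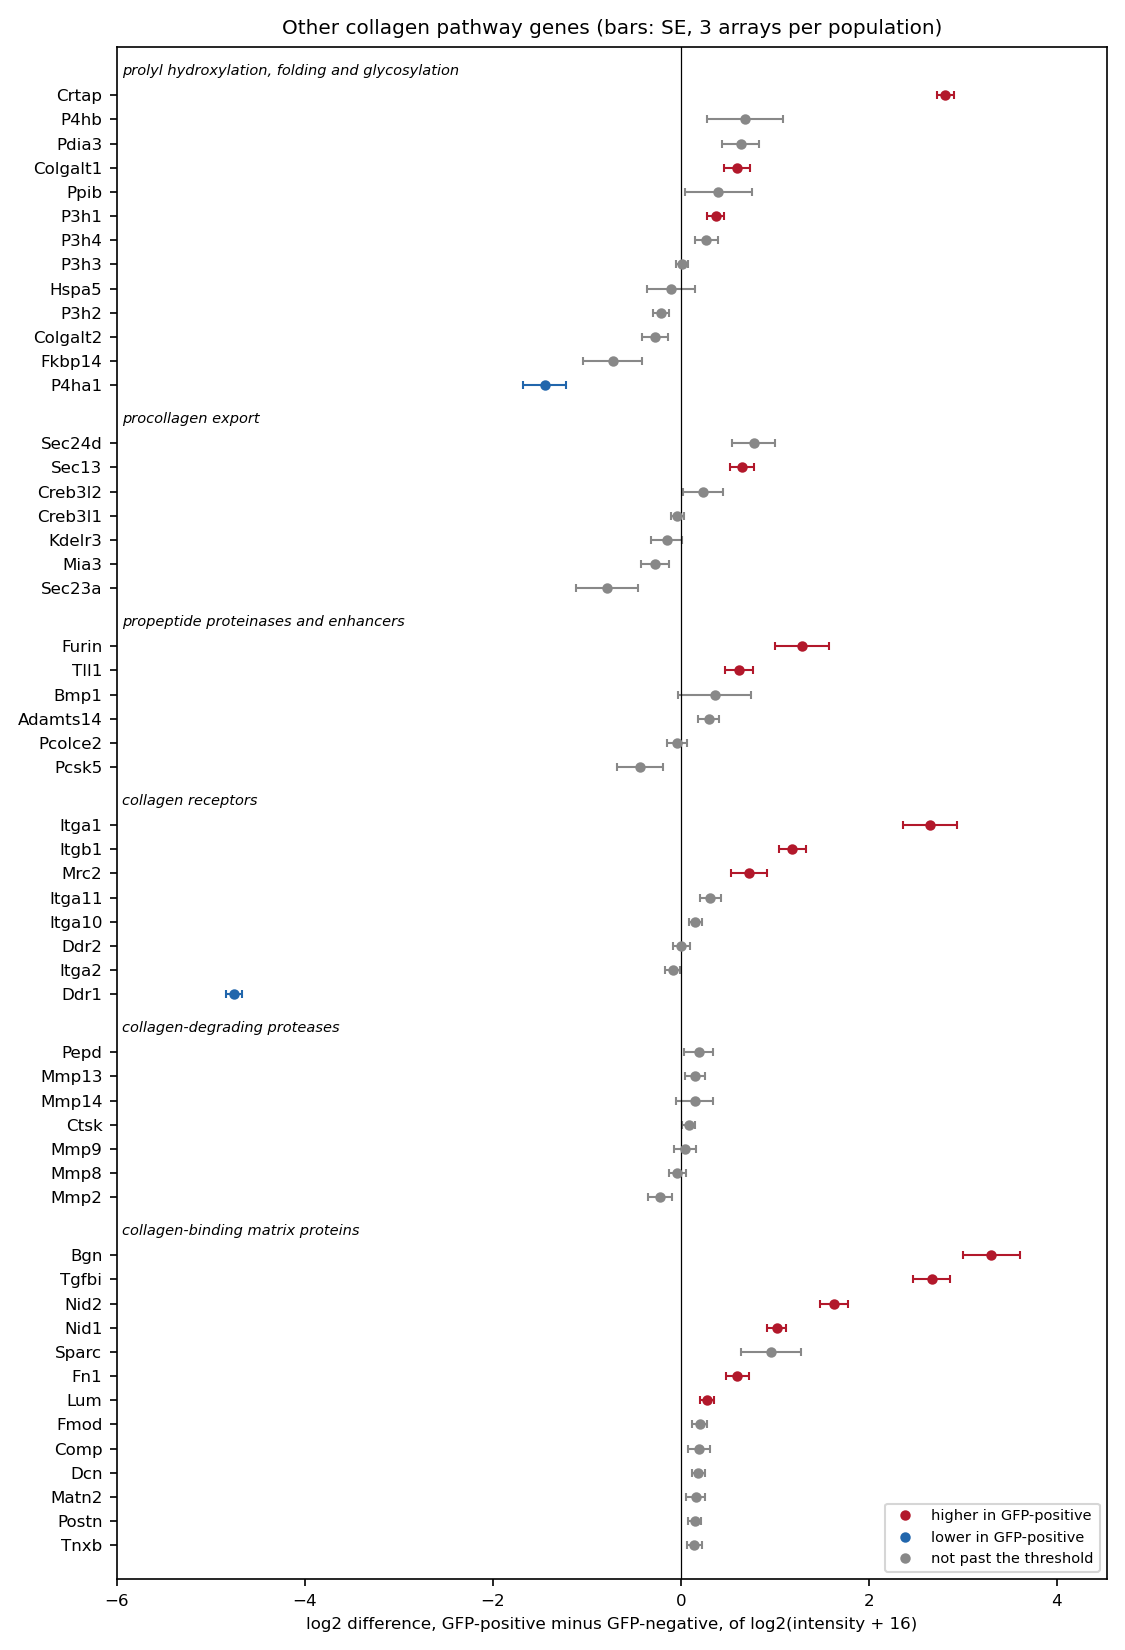
Log2 difference of each measured partner gene, grouped by list, with bars for the standard error (SE) of limma's fit. Bgn (3.30) and Crtap (2.81) are the farthest above 0, and Ddr1 (-4.75) and P4ha1 (-1.45) the farthest below.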

How the data were processed

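GFP-positive and GFP-negative sorted retinal cells were compared on 18 arrays, 3 per population on each of chips A, B and C, grouped by sample titles. The deposited table gives a linear intensity for each probe set. For its summarisation, background correction and normalization by the authors, the sources used here give no method, and another method could change any difference. Detection calls were not used. Symbols came from the platform annotation: 10833, 10581 and 7717 probe sets of chips A, B and C had 1 symbol, 396, 178 and 150 had several, and 1193, 1652 and 4001 had none. Only those with 1 symbol were used.

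Each chip was fitted alone on log2(intensity + 16) with the two-sided lmFit and eBayes test of limma 3.58.1 (R 4.3.3). P-values were adjusted over all probe sets of a chip by Benjamini-Hochberg, and 0.05 was the threshold. A gene was read by its brightest probe set over the 3 chips. The fit was tried on simulated data with independent normal noise and known changes, in which no array stood apart. That run does not bear on GFP-positive replicate 3. The members and lists were chosen with earlier results of these data known. Every member is named; partner lists name up to 3 called genes per direction with the largest difference and the brightest that did not pass. Alternatives covered normalization, pseudocount, a filter on dim probe sets, variance prior, array weights, replicate block, adjustment, thresholds, probe set choice and each array left out. Promoter windows came from RefSeq (GRCm38.p6). Figures were drawn with matplotlib 3.10.9. The number of arrays limits the precision.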

Additional observations from a re-analysis of the deposited data

How the results depend on the processing

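The counts of 8 members higher and 4 lower, and of 15 partner genes higher and 2 lower, were recomputed under 19 alternatives. In the main fit, 1569 of all genes were higher and 1907 lower. Col4a1, Col4a2, Col18a1, Col15a1 and Col9a3 kept their direction and call under every alternative that measured them. With array weights 14 members were higher and 6 lower, or 28.6% and 12.2%, beside 19.7% and 18.5% of all genes, and 24 partner genes were higher and 6 lower. At an adjusted p under 0.01, 4 members were higher and 2 lower, with 7 partner genes higher, beside 778 and 1042 of all genes. With at least 2-fold change, 4 members were higher and 2 lower, with 8 partner genes higher, beside 742 and 1013 of all genes. With brighter probe sets only, 9 partner genes were higher, beside 1250 of all genes that kept a probe set. With each array left out in turn, members higher ranged from 5 to 9 and members lower from 3 to 7. Partner genes higher ranged from 7 to 15 and partner genes lower from 2 to 4. Over all genes, the counts higher ran from 944 to 2382 and the counts lower from 1295 to 2733. Member or partner counts moved by over 1.5 times without GFP-negative replicate 1 (5 members higher) or GFP-positive replicate 3 (7 members lower, 4 partner genes lower). They also did so without GFP-positive replicate 1 (7 partner genes higher) and without GFP-negative replicate 2 or 3 (9 partner genes higher each). With the replicate number as a block, 6 members were higher and 3 lower, and 10 partner genes higher and 2 lower. All genes then gave 1166 higher and 1562 lower. The replicate numbers were not taken as pairs, since the labels do not say that they mark a shared preparation. After each population's mean was subtracted per probe set, same-numbered arrays correlated at -0.37 to 0.29. With 3 arrays per population such values depend on one another and cannot decide the pairing. Where a value passed on either side, directions turned for Col9a1 by its chip A probe set (0.11) and for Col1a2 without suffixed probe sets (-0.52) and without GFP-positive replicate 3 (-0.71), where leaving out single arrays gave Col1a2 values from -0.71 to 1.17. With no call on either side, the sign also turned for Col1a2 with array weights (from 0.54 to -0.45), and for 13 other members, to values within 0.093 of 0. Signal over background was not assessed, since detection calls were not used, so dim members are the least certain.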
